A study of Ovis aries with 8 samples.

Results

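Somatostatin is the hormone of the islet delta cell, and the genes described here are its precursor gene, its receptors and genes known from delta cells. They were chosen by name: 10 symbols were listed (SST, HHEX, LEPR, RBP4, SSTR1, SSTR2, SSTR3, SSTR5, PCP4 and BCHE), and 9 of them have a row of exactly that name among the 25000 rows of the table. HHEX, a homeobox factor that mouse delta cells need, has no row under that symbol and was not analysed here. All 9 rows passed a mean abundance of at least 1 FPKM (fragments scaled for transcript length and sequencing depth) over all animals, a filter that left 13252 rows for testing.

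Islets were picked by hand from near-term singleton sheep fetuses of Columbia-Rambouillet ewes. The NE-Infused group held 4 fetuses (137 to 139 days of gestation, 2.8 to 3.7 kg, 3 males and 1 female) that received norepinephrine into a vein for 7 days, at 1 µg/min on day 1, 2 µg/min on days 2 to 4 and 4 µg/min on days 5 to 7. The Saline-Control group held 4 fetuses (139 to 140 days, 3.6 to 5 kg, 3 males and 1 female) that received saline (0.9%) with ascorbic acid (0.3%) and no norepinephrine. Each library came from a separate numbered fetus, so n = 4 animals per group throughout, and ± values are SDs unless an SE is named.

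Somatostatin restrains insulin and glucagon release at short range. It does so through receptors coupled to inhibitory G proteins, which lower cAMP, open inward-rectifier potassium channels and close calcium channels. In human and rodent islets SSTR2 is the receptor best known from alpha cells, and SSTR5 and SSTR1 are described on beta cells. Norepinephrine reaches islet cells through adrenergic receptors, of which the alpha-2 class uses the same family of G proteins. The comparison asked whether transcripts of this paracrine system differed after a week of norepinephrine, and how receptor levels followed the ligand from animal to animal.

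Libraries from animals whose numbers begin with 09 differed from those that begin with 10, and the labels do not say what these digits mean. Summed FPKM ran from 981583 to 1112624 in animals numbered 09 and from 768021 to 796149 in those numbered 10, and the first principal component (28.9% of the variance) put the number groups on opposite sides. Animals numbered 09 are 3 NE-Infused and 1 Saline-Control, and those numbered 10 are 1 NE-Infused and 3 Saline-Control. Fetuses numbered 09 weighed 2.8 to 3.6 kg at 137 to 139 days and included both females. Those numbered 10 weighed 3.7 to 5 kg at 139 to 140 days and were all male. Differences by number prefix therefore cannot be told apart from those by fetal weight, age or sex. With treatment in the model, limma called 16.5% of tested genes different between 10 and 09 (adjusted p under 0.05). For that reason differences within each number group stand beside the pooled ones.

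No member differed between treatments after adjustment. Limma called 0 of the 9 at an adjusted p under 0.05, where 0% of all 13252 genes were called. At an unadjusted p under 0.05 it marked 1 of the 9, SST, where 7.36% of all genes were marked. The groups overlapped in all 9 members, and were apart in 4.23% of all genes (1.88% with norepinephrine higher). With the number prefix in the model limma called 0 members, where it called 0.00755% of all genes, and it called no member for an interaction of treatment and prefix, where it called 0.121%. By their means 5 members were higher (SST and the 4 receptors) and 4 lower (RBP4, BCHE, LEPR and PCP4) with norepinephrine. The median log2 difference was 0.17 over the members and 0.017 over all genes tested.

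**Figure D1:**
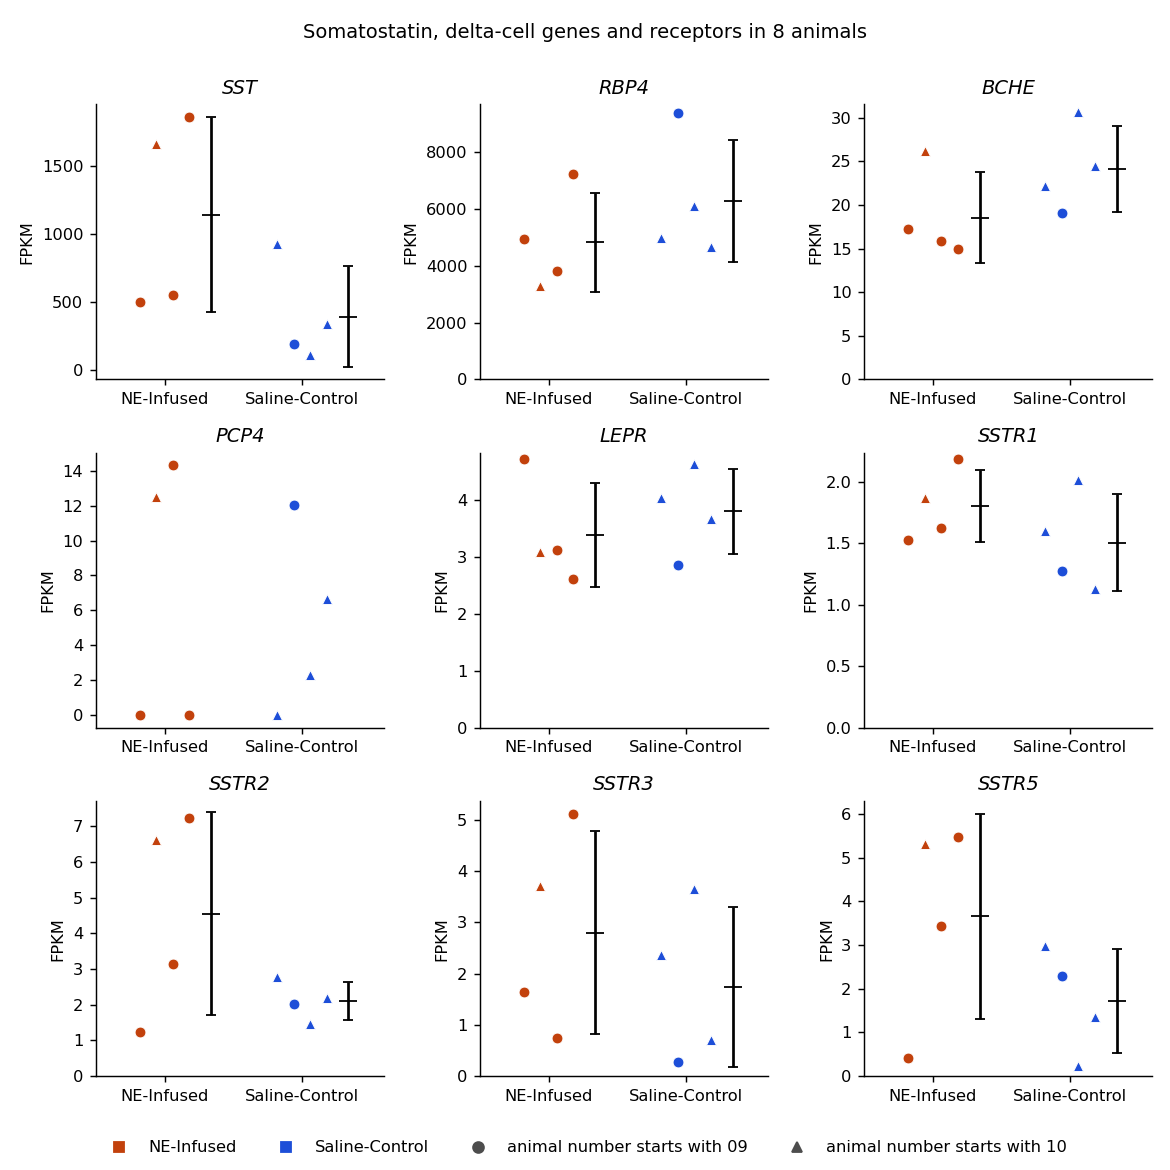
FPKM of the 9 measured members in each animal, NE-Infused left and Saline-Control right; circles are animals numbered 09 and triangles those numbered 10. Bars give the mean ± SD (n = 4) and are left out for PCP4, which is listed at 0 in 3 animals; the groups overlap in every panel.

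SST encodes the somatostatin precursor (Oar_v3.1 chromosome 1, 197885693 to 197888971). It stood at 499, 1660.1, 550.2 and 1858 FPKM in NE-Infused animals 1 to 4, against 928, 192, 113 and 338 FPKM in Saline-Control animals 1 to 4. NE-Infused 2 and 4 were the highest of all 8 animals, Saline-Control 1 lay above NE-Infused 1 and 3, and the groups overlapped. The means were 1142 ± 717 FPKM with norepinephrine and 393 ± 369 FPKM in controls. The difference of log2(FPKM + 1) was 1.73 (SE 0.67, 95% interval 0.23 to 3.24, limma adjusted p = 0.628), with an unadjusted p of 0.0286 in limma and of 0.114 by the exact two-sided permutation test. The unadjusted limma p was over 0.05 without NE-Infused 2, NE-Infused 4, Saline-Control 2 or Saline-Control 3, with equal library totals, and with gestational age in the model, where the difference was 1.57 (SE 1.08). Within 09 the log2 difference was 2.05, within 10 it was 2.33, and it was 2.19 (SE 0.76, limma adjusted p = 0.383) with the number prefix in the model. In these islets of mixed cells a change in delta-cell number and a change in RNA per delta cell cannot be told apart.

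SST was also among the most variable genes: 1.35% of tested genes had a larger SD of log2(FPKM + 1) over the 8 animals, and its highest value was 16.4 times its lowest. Its place among all 25000 rows, counted from the top, was 257, 61, 238 and 93 in NE-Infused animals 1 to 4 and 105, 808, 1049 and 307 in Saline-Control animals 1 to 4. To set it against endocrine tissue in the same library, the mean of 9 pan-endocrine genes was subtracted (CHGA, CHGB, SCG2, SCG3, SCG5, PAX6, INSM1, RFX6 and PCSK1N; NEUROD1 has no row of that name). On this log2 scale SST stood at 1.51 ± 1.00 with norepinephrine and 0.0026 ± 1.24 in controls, a difference of 1.51 (exact two-sided permutation p = 0.114). It was 2.02 in 09 and 1.87 in 10. The smallest p this design allows is 0.0286.

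**Figure D2:**
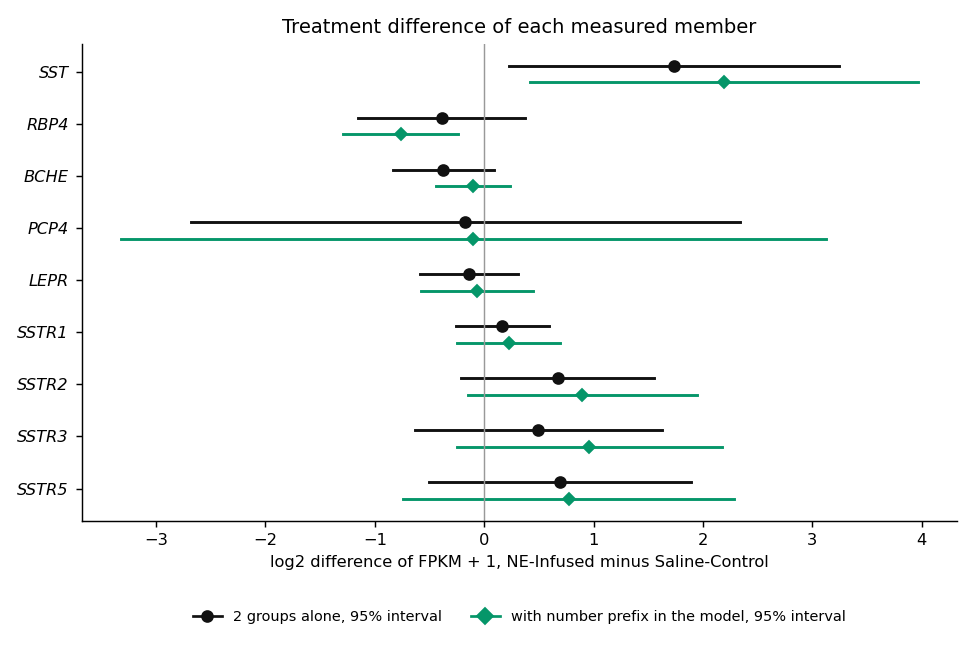
Log2 difference of FPKM + 1, NE-Infused minus Saline-Control, for the 9 measured members; black circles are the comparison of the groups alone and green diamonds the model with the number prefix, each with its 95% interval. The interval of SST runs from 0.23 to 3.24 without adjustment for the number of genes tested, and RBP4 lies to the left of 0 by 0.39 without and 0.76 with the prefix.

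RBP4 encodes the plasma carrier of retinol, a transcript enriched in human delta cells (chromosome 22, 14598701 to 14604325). It was the most abundant member, at 4950.3, 3289, 3828 and 7241 FPKM in NE-Infused animals 1 to 4 and 4994, 9369, 6118 and 4652 FPKM in Saline-Control animals 1 to 4. Its 2 highest values, in Saline-Control 2 and NE-Infused 4, both came from animals numbered 09. The means were 4827 ± 1752 FPKM with norepinephrine and 6283 ± 2150.2 FPKM in controls (log2 difference -0.39, SE 0.34, limma adjusted p = 0.790). Within the number groups the difference was -0.86 in 09 and -0.67 in 10. With the prefix in the model it was -0.76 (SE 0.23, limma adjusted p = 0.347). RBP4 was then among the 11.7% of all genes with an unadjusted p under 0.05. The difference within 09 rests on a single control, Saline-Control 2, which had the highest RBP4 of all animals. That within 10 rests on a single NE-Infused animal, NE-Infused 2, which had the lowest, and the model with the prefix combines both. The pooled difference was -0.18 without Saline-Control 2 and -0.23 without NE-Infused 2. Without any other single animal it ran from -0.61 to -0.30. Counted from the top of the table, RBP4 held places 14 to 34 in the NE-Infused libraries and places 9 to 13 in the Saline-Control libraries.

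By their means SST was higher and RBP4 lower with norepinephrine, and both are known from delta cells. SST transcripts numbered 0.101, 0.505, 0.144 and 0.257 per RBP4 transcript in NE-Infused animals 1 to 4, against 0.186, 0.0204, 0.0185 and 0.0728 in Saline-Control animals 1 to 4. The ratio was thus lowest in 3 controls, while Saline-Control 1 lay among the NE-Infused animals. The log2 ratio, a measure chosen after the values were seen, differed by 2.13 (exact two-sided permutation p = 0.0857), and by 2.92 in 09 and 3.00 in 10. The log2 ratio of SST to BCHE differed by 2.11 (exact two-sided permutation p = 0.0857) and that of SST to LEPR by 1.87 (exact two-sided permutation p = 0.114). SST enters each of these ratios, and its own log2 difference was 1.73, so their like size is no separate result. RBP4 is also a gene of hepatocytes, and the hepatocyte markers (5 of 5 with a row) summed to between 13.9 and 40.4 FPKM with norepinephrine and between 11.8 and 40.7 FPKM in controls, with ALB at 0.331 ± 0.181 and 0.112 ± 0.0345 FPKM. The mean log2(FPKM + 1) of these markers was highest in Saline-Control 2 (1.94) and NE-Infused 4 (1.89), the animals with the most RBP4. Next came NE-Infused 3 (1.88), which had the second-lowest RBP4. The part of hepatocytes in the RBP4 values was not tested.

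BCHE encodes butyrylcholinesterase (chromosome 1, 219547782 to 219622646), which human delta cells express. It stood at 17.3, 26.2, 15.8 and 14.9 FPKM in NE-Infused animals 1 to 4, against 22.2, 19.1, 30.7 and 24.5 FPKM in Saline-Control animals 1 to 4. The 4 animals numbered 09, 3 of them NE-Infused, were the 4 lowest. The log2 difference was -0.37 (SE 0.20, limma adjusted p = 0.704) between the treatments, and -0.24 in 09 and 0.035 in 10. Between the number groups BCHE was the only member called, where 16.5% of all tested genes were called. It was higher by 0.54 in animals numbered 10 (SE 0.15, limma adjusted p = 0.0427, treatment in the model). Its row overlaps an unnamed Ensembl gene, and no source used here tells whether counting was by strand, so the value of BCHE may hold fragments of that gene.

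LEPR, the leptin receptor gene (chromosome 1, 40760256 to 40858312), stood at 4.72, 3.08, 3.13 and 2.62 FPKM in NE-Infused animals 1 to 4 and 4.04, 2.85, 4.65 and 3.67 FPKM in Saline-Control animals 1 to 4. The groups covered nearly the same range, and the log2 difference was -0.14 (SE 0.20, 95% interval -0.59 to 0.31, limma adjusted p = 0.879). It was 0.19 in 09 and -0.32 in 10. PCP4 encodes a small calmodulin-binding peptide (chromosome 1, 258083945 to 258118697). It is listed at 0 in NE-Infused 1 and 4 and in Saline-Control 1, at 12.5 and 14.3 FPKM in NE-Infused 2 and 3, and at 12.05, 2.32 and 6.66 FPKM in Saline-Control 2, 3 and 4. Such zeros also occur elsewhere: 124 tested genes (0.936%) are at 0 in at least 3 animals and at 10 FPKM or more in another. The ribosomal protein gene RPL3 is listed at 0 in all 8 animals. Whether the zeros of PCP4 are failed estimates was not tested. The fitted log2 difference of PCP4, -0.17 (SE 1.11, limma adjusted p = 0.974), rests on these zeros, and it was -2.39 in 09 and 2.20 in 10.

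In order of mean FPKM over the 8 animals the members ran RBP4 (5555), SST (767), BCHE (21.3), PCP4 (5.98), LEPR (3.60), SSTR2 (3.33), SSTR5 (2.68), SSTR3 (2.27) and SSTR1 (1.65). RBP4 in its lowest animal (3289) was above SST in its highest (1858), and SST in its lowest (113) was above BCHE in its highest (30.7). BCHE in its lowest animal (14.9) was above PCP4 in its highest (14.3). From PCP4 down to SSTR1 neighbours in this order overlapped from animal to animal.

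The receptors were low, and all 4 had higher means with norepinephrine without passing. SSTR2 (chromosome 11, 57048171 to 57049277) stood at 1.24, 6.60, 3.13 and 7.22 FPKM in NE-Infused animals 1 to 4, against 2.78, 2.01, 1.46 and 2.19 FPKM in Saline-Control animals 1 to 4. NE-Infused 2 and 4, the animals with the most SST, had more than any other animal, and NE-Infused 1 had the least of all 8. The log2 difference was 0.67 (SE 0.39, 95% interval -0.21 to 1.56, limma adjusted p = 0.723), 0.49 in 09 and 1.30 in 10. SSTR5, which prefers the longer form of somatostatin (chromosome 24, 812728 to 813866), stood at 0.417, 5.31, 3.43 and 5.47 FPKM in NE-Infused animals 1 to 4 and 2.97, 2.29, 0.231 and 1.35 FPKM in Saline-Control animals 1 to 4. Its highest value was 23.7 times its lowest, and its log2 difference was 0.69 (SE 0.53, 95% interval -0.51 to 1.89, limma adjusted p = 0.777), 0.064 in 09 and 1.48 in 10.

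SSTR3, a receptor also found on neuronal cilia (chromosome 3, 180445201 to 180446433), stood at 1.64, 3.70, 0.734 and 5.11 FPKM in NE-Infused animals 1 to 4 and 2.35, 0.266, 3.64 and 0.697 FPKM in Saline-Control animals 1 to 4. High and low animals occurred in both groups, and the log2 difference was 0.49 (SE 0.50, 95% interval -0.64 to 1.62, limma adjusted p = 0.824), 1.26 in 09 and 0.66 in 10. SSTR1 (chromosome 18, 47234512 to 47235684) was the steadiest receptor, at 1.52, 1.87, 1.62 and 2.18 FPKM in NE-Infused animals 1 to 4 and 1.602, 1.28, 2.01 and 1.13 FPKM in Saline-Control animals 1 to 4. Its log2 difference was 0.17 (SE 0.19, 95% interval -0.25 to 0.59, limma adjusted p = 0.835), 0.28 in 09 and 0.17 in 10. With every library scaled to the same total, which moved the median of all genes to -0.12 from 0.017, the 4 receptors kept their sign.

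The number of fragments behind these receptor values could be inferred in 6 animals. Low FPKM values move in steps of 1 fragment, and in NE-Infused 1, 2 and 3 and Saline-Control 1, 3 and 4 the values of each receptor were first scaled by the relative depth inferred from low genes. So scaled, they were whole multiples of a common step within 0.0684 of a whole number, with the step assumed to lie between 0.04 and 0.06 FPKM in Saline-Control 1; another range of steps could give other multiples. The multiples ran from 16 to 132 fragments for SSTR2, 5 to 99 for SSTR5, 12 to 96 for SSTR3 and 21 to 50 for SSTR1. SSTR5 thus rested on 5 fragments in NE-Infused 1 and on 5 in Saline-Control 3 (exact Poisson 95% interval 1.62 to 11.7 for each), and on 99 in NE-Infused 2 (80.5 to 121) and 55 in Saline-Control 1 (41.4 to 71.6). SSTR1 rested on 21 fragments in NE-Infused 1 (13.0 to 32.1) and on 50 in Saline-Control 3 (37.1 to 65.9). These intervals cover counting error only, and the fragment numbers are inferred from FPKM.

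The receptors made up different shares of their summed FPKM in different animals. The sum was 4.83, 17.5, 8.91 and 20.0 FPKM in NE-Infused animals 1 to 4, against 9.71, 5.84, 7.34 and 5.36 FPKM in Saline-Control animals 1 to 4. It was highest in NE-Infused 2 and 4 and lowest in NE-Infused 1, and the log2 difference of the sum was 0.63 (exact two-sided permutation p = 0.257), 0.64 in 09 and 1.16 in 10. SSTR2 gave 25.8% to 37.8% of the sum in NE-Infused animals and 19.9% to 40.8% in controls. SSTR5 gave 8.63% to 38.5% with norepinephrine and 3.14% to 39.2% in controls. SSTR3 ranged from 8.24% to 34.03% with norepinephrine and from 4.56% to 49.5% in controls, and was the largest share in NE-Infused 1 and Saline-Control 3, the same animals in which SSTR5 was smallest.

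**Figure D3:**
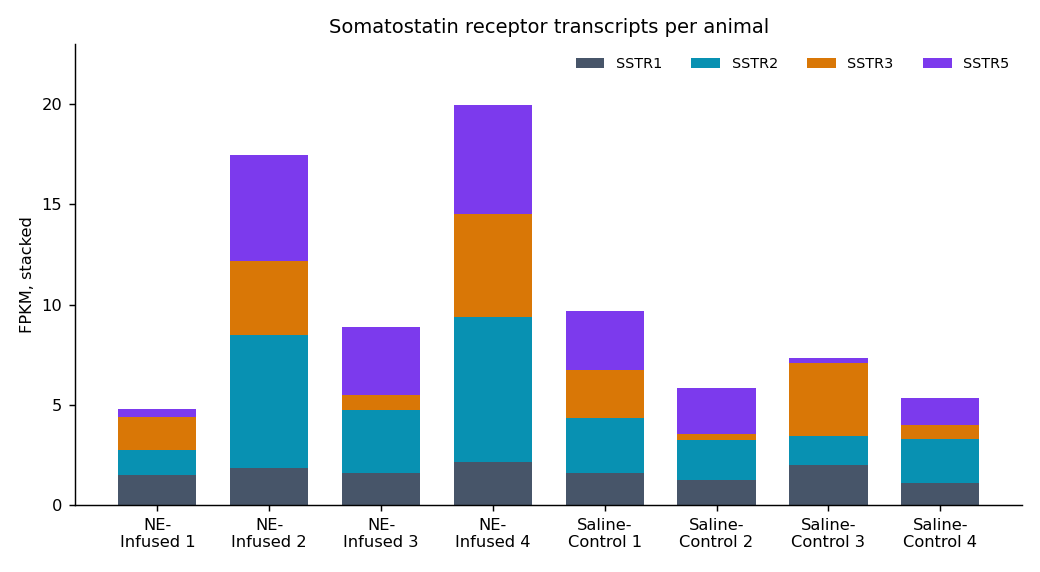
Stacked FPKM of the 4 somatostatin receptor genes in each animal, NE-Infused 1 to 4 then Saline-Control 1 to 4. The stacks of NE-Infused 2 (17.5) and NE-Infused 4 (20.0) stand above the other 6, which lie between 4.83 and 9.71 FPKM.

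Across the 8 animals, SSTR2 and SSTR5 had the strongest relation to SST among the other 8 members, short of the threshold after adjustment for these 8 relations. For SSTR2 Pearson's r of log2(FPKM + 1) was 0.834 (exact permutation p = 0.0114, adjusted p = 0.0885) and Spearman's rho was 0.833 (exact permutation p = 0.0154, adjusted p = 0.0615). For SSTR5 r was 0.787 (exact permutation p = 0.0221, adjusted p = 0.0885) and rho was 0.881 (exact permutation p = 0.00724, adjusted p = 0.0579). Without Saline-Control 3 and NE-Infused 4, the animals farthest from the median of SST, r was 0.738 for SSTR2 (exact permutation p = 0.0972) and 0.539 for SSTR5 (exact permutation p = 0.253). After the treatment means were removed r was 0.765 and 0.754, and after the means of the number groups 0.835 and 0.787, SSTR2 before SSTR5. Without NE-Infused 1 both passed, at r = 0.928 for SSTR2 and 0.904 for SSTR5 (exact permutation adjusted p = 0.0135 for each). The number groups hold 4 animals each, too few for an r of their own.

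The relations of SSTR3 and SSTR1 to SST turned on 1 animal. Over all 8 animals r was 0.486 for SSTR3 (exact permutation p = 0.221, adjusted p = 0.384; rho 0.619, exact permutation p = 0.115, adjusted p = 0.307) and 0.392 for SSTR1 (exact permutation p = 0.336, adjusted p = 0.384; rho 0.452, exact permutation p = 0.267, adjusted p = 0.357). Saline-Control 3 had the least SST of all animals with the second-highest SSTR1 and the third-highest SSTR3. Without it r was 0.961 for SSTR3 (exact permutation p = 0.00198, adjusted p = 0.0159) and 0.903 for SSTR1 (exact permutation p = 0.00714, adjusted p = 0.0286). Without Saline-Control 3 and NE-Infused 4 together r was 0.946 and 0.862, SSTR3 before SSTR1. For the delta-cell genes r with SST was negative: it was -0.456 for LEPR, -0.401 for RBP4, -0.396 for BCHE and -0.256 for PCP4, with adjusted exact permutation p-values between 0.384 and 0.526, and rho from -0.452 to -0.146 with adjusted exact permutation p-values between 0.357 and 0.743.

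**Figure D4:**
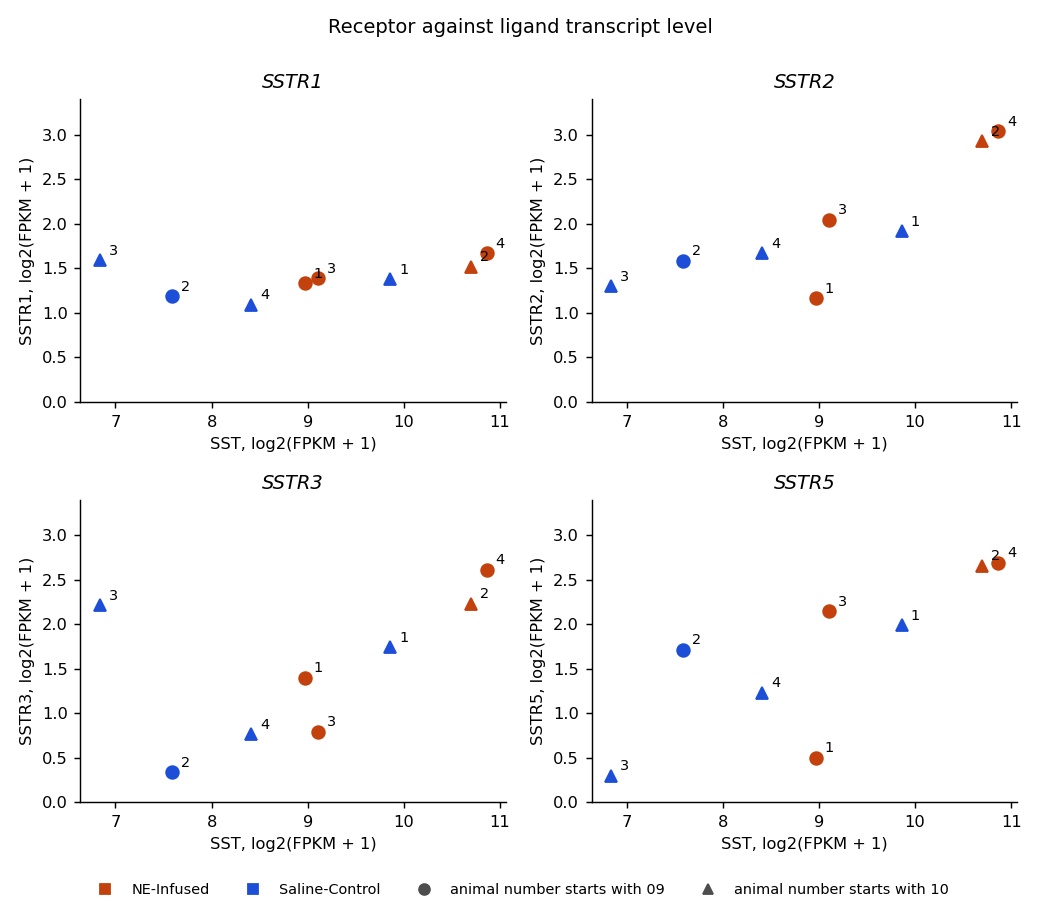
Log2(FPKM + 1) of each receptor against that of SST in 8 animals; numbers are replicate numbers within NE-Infused (orange) and Saline-Control (blue). NE-Infused 2 and 4 lie at the right of every panel, and Saline-Control 3 lies at the far left, high for SSTR1 and SSTR3 and low for SSTR5.

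Relations between the receptors were computed after the values were seen, and 2 of the 6 pairs passed. SSTR2 and SSTR5 had r = 0.908 over 8 animals (exact permutation p = 0.00375, adjusted p = 0.0269 over 14 relations; rho 0.952, exact permutation p = 0.00114, adjusted p = 0.0160). SSTR1 and SSTR3 had r = 0.892 (exact permutation p = 0.00384, adjusted p = 0.0269; rho 0.881, exact permutation p = 0.00724, adjusted p = 0.0338). In the other 4 pairs r ran from 0.193 to 0.524. Without the 2 animals farthest from the median of the gene on the x axis, r was 0.931 for SSTR2 with SSTR5 (exact permutation p = 0.0181) and 0.879 for SSTR1 with SSTR3 (exact permutation p = 0.0222), and neither passed after adjustment (0.0972 for each). SSTR1 with SSTR3 also missed the adjusted threshold without NE-Infused 2 (0.0778), NE-Infused 4 (0.124), Saline-Control 1 (0.0681) or Saline-Control 4 (0.0722), and SSTR2 with SSTR5 without Saline-Control 1 (0.0681) or Saline-Control 4 (0.0806), by exact permutation tests. After the treatment means were removed r was 0.893 for SSTR2 with SSTR5 and 0.885 for SSTR1 with SSTR3, the second of which then missed the adjusted threshold (exact permutation adjusted p = 0.0729). After the means of the number groups were removed r was 0.915 and 0.934, and both missed it (exact permutation adjusted p = 0.0729 each).

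Markers of alpha cells stood in nearly the same order across animals as SST. Of 10 alpha-cell markers 9 have a row, none at 0 throughout, and their summed level was 1506 to 5273 FPKM with norepinephrine and 1219 to 3374 FPKM in controls. Their mean log2(FPKM + 1) was 4.88, 5.68, 5.23 and 5.86 in NE-Infused animals 1 to 4 and 5.58, 5.18, 4.85 and 5.05 in Saline-Control animals 1 to 4, so that NE-Infused 4, NE-Infused 2 and Saline-Control 1 led, as they did for SST. GCG, the glucagon gene, stood at 861, 2286, 1039 and 4108 FPKM in NE-Infused animals and 2434, 1063, 703 and 1191 FPKM in controls, and was highest in the same 3 animals. PYY, the peptide YY gene, reached 15.3 and 20.6 FPKM in NE-Infused 2 and 4 and 7.09 FPKM in Saline-Control 1, and lay between 2.30 and 4.64 FPKM in the other animals. PYY was not among the alpha-cell markers but was listed with PPY and the ghrelin gene GHRL for epsilon and PP cells. PPY has no row, and PYY and GHRL together summed highest in NE-Infused 3 (138 FPKM), against 68.1 and 54.9 FPKM in NE-Infused 2 and 4. Once a straight line on the alpha-cell mean was removed from both genes, r with SST was 0.197 for SSTR2 and -0.027 for SSTR5, and r between SSTR2 and SSTR5 was 0.381, while r between SSTR1 and SSTR3 was 0.862. This adjustment was chosen after the values were seen, and no other marker list was used in this way. Because the alpha-cell mean stood in nearly the same order as SST, its removal also takes away variation of SST itself. The lower r therefore does not tell where the relation comes from, and the part of alpha-cell content in it was not tested.

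**Figure D5:**
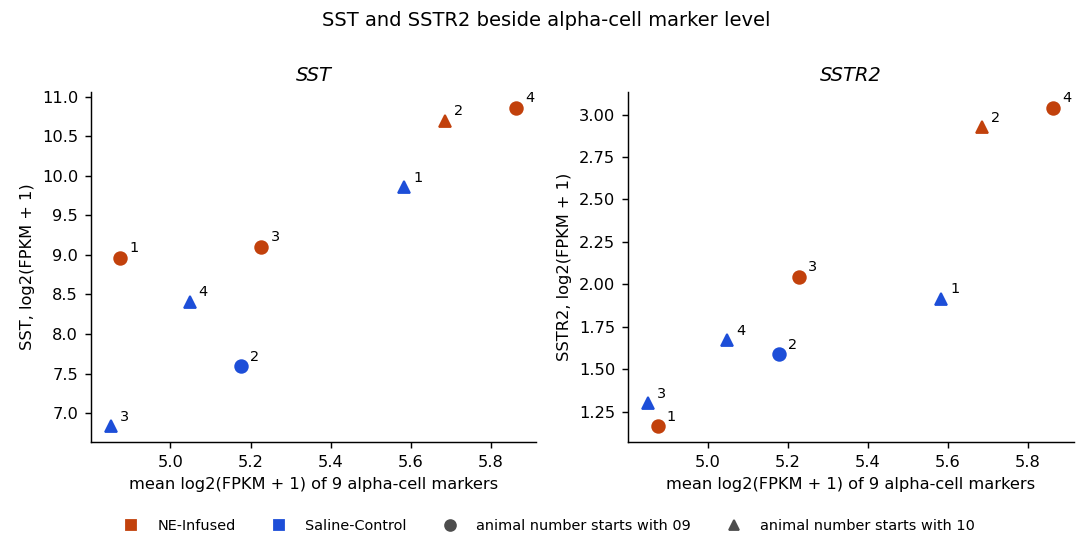
SST (left) and SSTR2 (right), as log2(FPKM + 1), against the mean log2(FPKM + 1) of 9 alpha-cell markers in each animal; numbers are replicate numbers. NE-Infused 4, NE-Infused 2 and Saline-Control 1 have the highest marker means (5.86, 5.68 and 5.58) and the most SST.

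Among 11369 tested genes with a name of their own, the 5 whose levels were most like those of SST over the 8 animals were CCRL2 (r = 0.976), PTPRE (0.960), GPM6A (0.956), NSUN5 (0.951) and PROC (0.949). CCRL2, a chemokine receptor-like gene, stood at 3.08, 6.79, 3.42 and 5.76 FPKM in NE-Infused animals 1 to 4 and 5.18, 1.83, 0.645 and 1.94 FPKM in Saline-Control animals 1 to 4. PTPRE, a receptor tyrosine phosphatase, stood at 24.9 ± 5.21 FPKM with norepinephrine and 17.7 ± 6.17 FPKM in controls, and GPM6A, a neuronal membrane glycoprotein, at 13.5 ± 3.08 and 8.61 ± 3.02 FPKM. SSTR2 stood at place 97 and SSTR5 at place 166 in this order, and the median r of all ranked genes was 0.0115.

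The wider somatostatin system was read from 5 lists with 51 different tested genes. Limma called 0 of them at an adjusted p under 0.05. At an unadjusted p under 0.05 it marked 4, or 7.84%, against 7.36% of all genes, and 5 did not overlap between the groups, or 9.80%, against 4.23%. Among genes that make or mature the hormone, 3 of 6 tested had higher and 3 lower means (median log2 difference -0.056). CPE, the carboxypeptidase that trims peptide hormones, stood at 799 ± 3.96 FPKM with norepinephrine and 578 ± 109 FPKM in controls without overlap (log2 difference 0.48, 0.11 in 09 and 0.61 in 10, limma adjusted p = 0.574). PCSK2, a prohormone convertase, was at 530.1 ± 74.8 and 459 ± 164 FPKM (log2 difference 0.26, -0.40 in 09 and 0.48 in 10). FURIN, the protease known to cut the precursor to its longer form and named after its values were seen, was lower without overlap, at 73.3 ± 5.65 and 86.2 ± 4.83 FPKM (log2 difference -0.23, limma adjusted p = 0.675). CORT, which encodes the related peptide cortistatin, was below the filter and listed at 0 in 4 animals, and SSTR4 has no row of that name.

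Of 15 tested genes for the signal path behind the receptors 6 had higher and 9 lower means (median -0.067). The G-protein beta subunits GNB2 and GNB1 were the most abundant, at 475 ± 88.7 and 457 ± 17.6 FPKM with norepinephrine and 417 ± 66.6 and 403 ± 14.9 FPKM in controls. The pooled log2 difference of GNB2 was 0.18, but it was -0.029 in 09 and -0.041 in 10. GNB1 did not overlap between groups (log2 difference 0.18, 0.13 in 09 and 0.15 in 10, limma adjusted p = 0.747). Of 7 tested factors known to bind the somatostatin promoter 6 had higher means, with a median of 0.076, and with equal library totals 2 had. PDX1 was at 272 ± 47.6 FPKM with norepinephrine and 257 ± 30.9 FPKM in controls, and PAX6 at 119.9 ± 31.2 and 102 ± 17.7 FPKM. Of the 9 pan-endocrine genes 8 had higher means (median 0.21), against 7 with equal library totals (median 0.054) and 6 with the number prefix in the model (median 0.17). Their mean log2 level differed by 0.035 in 09 and 0.46 in 10, with CHGA at 4853 ± 829.7 and 3891 ± 1555 FPKM and SCG5 at 3829 ± 653 and 3235 ± 1167 FPKM.

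Other genes reported in delta cells split, 9 of 15 higher and 6 lower (median 0.15), and with the number prefix in the model 7 were higher (median -0.18). CASR, the calcium-sensing receptor gene, stood at 83.7, 89.1, 95.8 and 56.3 FPKM in NE-Infused animals 1 to 4 and 137, 115, 121 and 116 FPKM in Saline-Control animals 1 to 4. Every NE-Infused animal was below every control (log2 difference -0.61, SE 0.17, -0.58 in 09 and -0.48 in 10, limma adjusted p = 0.523). SEC11C, a signal peptidase subunit, was higher in every NE-Infused animal, at 204 ± 24.7 and 120.2 ± 20.9 FPKM (log2 difference 0.77, SE 0.15, 0.49 in 09 and 0.78 in 10, limma adjusted p = 0.454). GHSR, the ghrelin receptor through which ghrelin acts on mouse and human delta cells, stood at 22.6 ± 12.7 and 31.9 ± 5.94 FPKM (log2 difference -0.68, SE 0.42, limma adjusted p = 0.747), and its ligand gene GHRL at 58.6 ± 52.1 and 22.8 ± 16.5 FPKM. CRHR2, a receptor for urocortin 3 on mouse delta cells, was below the filter at 0.741 ± 0.242 and 0.310 ± 0.275 FPKM.

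Markers of other cell types gave the makeup of the samples. Acinar markers (9 of 12 with a row) summed to 132 to 958 FPKM with norepinephrine and 114 to 156 FPKM in controls. Their mean log2(FPKM + 1) was highest in NE-Infused 3 (4.98) and 1 (4.18), the NE-Infused animals with the least SST. It was 2.69 and 3.28 in Saline-Control 3 and 2, which had the least SST of all animals. In NE-Infused 4 and 2, which had the most SST, it was 3.80 and 2.65. Stellate and mesenchymal markers (6 of 7 with a row) summed to 303 to 1772 and 436 to 711 FPKM, Schwann cell and neuron markers (7 of 8) to 97.3 to 136 and 109 to 142 FPKM, and beta-cell markers (7 of 9, INS and MAFA without a row and IAPP listed at 0) to 1192 to 1848 and 1010.5 to 1421 FPKM. The part of these cell types in the member values was not tested.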

How the data were processed

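Poly(A)-selected RNA of hand-picked islets from 8 fetuses was read from both ends at 100 bp, as stated in the labels' protocols. The deposited table gives 1 FPKM value per gene and animal. Per the submitters' processing notes, TopHat2 2.0.1, Cufflinks 2.1.1, Cuffdiff and the Oar_v3.1 build were used. The sources used here name no annotation, filter or strand setting. Columns were matched to animals by the animal number (0 sample columns were left out). The members and lists were chosen with earlier results of these data known. Where a symbol had several rows, that of highest mean abundance stands for it; merged rows were not assigned. The file's starts were raised by 1.

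Values were analysed as log2(FPKM + 1), which understates changes of low genes. Rows with a mean of at least 1 FPKM were fitted with limma 3.58.1 in R 4.3.3 (lmFit, eBayes with trend, two-sided, Benjamini-Hochberg over 13252 rows, threshold 0.05). The fit was tested on simulated data with independent normal noise and no difference between the number groups. Changes were added only to genes with a higher mean log2 level than the receptors, LEPR and PCP4, so this test does not cover these members or the split by number. Single values and relations used exact two-sided permutation tests; p-values of the 8 relations to SST were adjusted over the 8, and those between receptors over all 14. Against Saline-Control 1, relative depth from the steps of low values was 0.648 in NE-Infused 1, 1.01 in NE-Infused 2, 0.726 in NE-Infused 3, 1.17 in Saline-Control 3 and 1.08 in Saline-Control 4, and unknown in the other 2 animals. By rule the text names all members, the 2 most abundant tested genes of each of the 5 lists of the somatostatin system, any gene past the threshold and the 5 genes most like SST. Other genes, among them CORT, FURIN, GHSR, GHRL, CRHR2, GCG, PYY and ALB, were named for their known roles after their values were seen. Alternatives were other pseudocounts, filters, scalings and covariates, a replicate block and leaving out animals.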

Additional observations from a re-analysis of the deposited data

How the results depend on the processing

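No member passed in the 157 alternative values with a limma adjusted p; values within a number group have no test, and the exact permutation p was 0.114 or more. The sign of SST, RBP4 and the 4 receptors held in every alternative value tried for these genes, which are part of the 184 tried for the 9 members. With 1 animal left out the difference ran from 1.29 to 2.30 for SST, -0.61 to -0.18 for RBP4, 0.094 to 0.26 for SSTR1, 0.43 to 1.05 for SSTR2, 0.19 to 0.82 for SSTR3 and 0.35 to 1.19 for SSTR5. With gestational age as a covariate it was -1.26 for RBP4 (limma adjusted p = 0.495) and 1.57 for SST (limma adjusted p = 0.724). Signs turned for LEPR (0.037 with gestational age as a covariate, 0.19 within animals numbered 09), for BCHE (0.00737 with gestational age, 0.035 within animals numbered 10) and for PCP4 (1.61 with gestational age, 2.20 within animals numbered 10, -0.87 to 0.47 when 1 animal was left out). Over all genes limma called 0, but 1 with equal library totals and 1 with the number prefix as a covariate (NNAT in both, no member), and 0 to 2 when 1 animal was left out. The genes with an unadjusted p under 0.05 numbered 975, but 1552 with the prefix and 595 to 2201 with 1 animal left out (595 without Saline-Control 3, 2201 without Saline-Control 2, 1517 without NE-Infused 2). The unadjusted p of SST was 0.00354 to 0.0837 with 1 animal left out, highest without NE-Infused 4. The replicate numbers belong to different animals, and the replicate block left 0 calls and 646 genes at an unadjusted p under 0.05; deviations of same-numbered animals correlated between -0.38 and 0.093.

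For the relations to SST, when 1 animal was left out r ran from 0.764 to 0.928 for SSTR2 and from 0.658 to 0.904 for SSTR5 (both past the adjusted threshold without NE-Infused 1), from 0.287 to 0.961 for SSTR3 and from 0.140 to 0.903 for SSTR1 (both past it without Saline-Control 3). On residuals from the treatment means SSTR2 passed (r = 0.765, exact permutation adjusted p = 0.0417). Without the 2 animals farthest from the median of SST, r turned to 0.129 for LEPR and 0.424 for BCHE. On residuals from the alpha-cell marker mean it turned to 0.352 for LEPR, -0.0043 for SSTR1 and -0.027 for SSTR5. Of the receptor pairs, SSTR2 with SSTR5 and SSTR1 with SSTR3 had r of at least 0.882 and 0.846 when 1 animal was left out, in that order, but missed the adjusted threshold with a pseudocount of 0.1 (0.0587 each) and on residuals from the number-prefix means (0.0729 each). Between the pairs signs turned without the 2 animals farthest from the median (SSTR1 with SSTR5 -0.131, SSTR2 with SSTR3 -0.353, SSTR3 with SSTR5 -0.014), without NE-Infused 4 (SSTR1 with SSTR5 -0.0028 to 0.685 over animals left out, SSTR3 with SSTR5 -0.075 to 0.534) and on alpha-cell residuals (-0.469 and -0.772). The cause was not tested.

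Depth limits the receptor values, of which SSTR5 rests on an inferred 5 fragments in each of 2 animals. No fragment number was inferred for NE-Infused 4 and Saline-Control 2. Saline-Control 2 had the lowest SSTR3 value (0.266 FPKM), and it is the only control behind the SSTR3 difference of 1.26 in 09.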
